A study of Mus musculus with 12 samples.

Results

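The genes described here encode the proteins of the cytosolic ribosome. They were taken by symbol from the deposited count table as the Rpl and Rps genes, without rows named as pseudogenes, S6 kinases and mitochondrial ribosomal proteins. The pattern found 85 of 25861 gene rows. By role, 43 encode large-subunit proteins, 29 encode small-subunit proteins, 3 encode the acidic stalk (Rplp0, Rplp1 and Rplp2), and 1, Rps27a, encodes a small-subunit protein fused to ubiquitin. Another 7 are paralogs (Rpl3l, Rpl7l1, Rpl10l, Rpl22l1, Rpl39l, Rps4l and Rps27l), and 2 are copies with like names (Rpl6l and Rpl32l). The RefSeq annotation of GRCm38.p6 held all 85 and classed 83 as protein coding, with Rpl6l and Rps4l classed as pseudogenes. In the text, the core genes are the 76 that are neither paralogs nor copies.

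The ribosome translates messenger RNA into protein, and its small subunit decodes the message while its large subunit joins the amino acids. The subunit proteins are needed in near-equal amounts, and many of their messenger RNAs begin with a run of pyrimidines, the 5′ terminal oligopyrimidine element, through which mTOR signalling and the RNA-binding protein LARP1 control their translation. Ribosomal protein genes have left many processed pseudogenes in mammalian genomes, so a short read from such a message can match several places.

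The 12 RNA-seq libraries came from mouse mammary tumour organoids of the MMTV-Neu model, whose transgene places Neu (Erbb2), an oncogene, under a mouse mammary tumour virus promoter. Organoids are cell clusters grown in a matrix, here of primary tumour cells that the labels class as epithelial. There were 3 groups of 4 libraries, numbered 1 to 4. Controls, labelled wild type, carried a non-targeting short hairpin RNA, and the others, labelled as knockdown, carried hairpin 1 or hairpin 2 against Cldn7, which encodes the tight junction protein claudin-7. All groups received lentivirus at a multiplicity of infection of 20, puromycin at 3 µg/ml for 3 days, medium with 2.5 nM FGF2, and 5 days in collagen I. The question posed by the submitters was how loss of Cldn7 affects invasion. The labels do not say whether the 4 numbers are separate mice or cultures. The main fits hold the number as a term, so their p-values measure the spread of group differences within number. That spread may be technical.

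Cldn7 was lower in each of the 8 hairpin libraries than in its same-number control, by 2.18 on the log2 scale over both hairpins (SE 0.07, edgeR quasi-likelihood adjusted p = 1.63e-07). Libraries numbered 1 and 2 held 34988358 to 44645514 counts, and those numbered 3 and 4 held 68581024 to 76329473. The summed epithelial markers (7 genes) stood at 7097 to 9984 CPM (counts scaled to a common library size) in all libraries. Erbb2 gave a large part of this sum, with 2960 of 7116 CPM in control 1 and 6548 of 9169 CPM in control 4. The 7 genes did not move alike. In replicates 3 and 4 against 1 and 2, Erbb2 differed by 0.66 on the log2 scale, Epcam by 0.18 and Elf3 by 0.17. The others differed by -0.29 (Cdh1), -0.46 (Krt8), -1.02 (Krt19) and -1.04 (Krt18). The summed macrophage markers (12 genes) stood at 38.4 to 175 CPM in replicates 1 and 2 and at 4.22 to 24.3 CPM in replicates 3 and 4. The summed lymphocyte markers (10 genes) stood at 3.72 to 8.84 and 0.215 to 0.832 CPM in the same sets. These sets of numbers come from the counts and not from the labels, and values are given for both.

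Promoter sequences from RefSeq (GRCm38.p6) were matched for 63 of the 85 genes, with 75 entries because some genes have several annotated starts. A C at the annotated start followed by at least 4 further C or T bases, read on the gene's strand, was found in 14 of the 75 (18.7%), against 2.51% of all 32851 promoter entries. Within 10 bases either side of the start the same pattern was found in 56.0% of the members' entries and 30.7% of all entries. The 30-base windows below run from 15 bases before the start to 15 bases from it on, with the pyrimidine run at the start in capitals. They were chosen to show runs of different length in genes of both subunits and the stalk.

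Rps27 (small subunit, chr3:90213634-90213663, minus strand): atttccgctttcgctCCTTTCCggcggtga

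Rps6 (small subunit, chr4:86857353-86857382, minus strand): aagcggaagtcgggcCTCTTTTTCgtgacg

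Rps18 (small subunit, chr17:33955651-33955680, minus strand): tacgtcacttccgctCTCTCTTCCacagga

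Rps21 (small subunit, chr2:180257364-180257393, plus strand): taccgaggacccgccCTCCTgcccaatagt

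Rpl28 (large subunit, chr7:4792950-4792979, plus strand): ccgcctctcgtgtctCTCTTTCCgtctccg

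Rpl35 (large subunit, chr2:39005117-39005146, minus strand): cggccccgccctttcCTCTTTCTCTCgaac

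Rpl15 (large subunit, chr14:18270972-18271001, minus strand): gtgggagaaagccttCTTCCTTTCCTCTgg

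Rplp2 (stalk, chr7:141447636-141447665, plus strand): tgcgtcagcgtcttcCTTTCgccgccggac

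In the 3 genes that passed the test below (Rpl26, Rpl19 and Rps4x), no annotated start opened such a run. The windows of 2 of them are printed without capitals for contrast.

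Rpl26 (large subunit, chr11:68901551-68901580, plus strand): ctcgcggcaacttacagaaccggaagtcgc

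Rps4x (small subunit, chrX:102189377-102189406, minus strand): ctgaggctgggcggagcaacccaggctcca

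The longest run printed is that of Rpl15, with 13 bases, and the shortest are those of Rps21 and Rplp2, with 5. An annotated start can lie some bases from the start used in these cells, so the absence of a run says only that these letters are not at that position. The median log2 fold change of both hairpins against control was -0.12 in the 14 genes with the run at an annotated start and -0.13 in the 49 matched genes without it.

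The ribosomal protein genes took a slightly smaller share of all counts in the hairpin libraries. In the controls numbered 1 to 4 the 85 genes held 2.60%, 2.34%, 2.13% and 1.28% of counts. With hairpin 1 they held 2.45%, 2.23%, 1.86% and 1.21%, and with hairpin 2 they held 2.23%, 2.33%, 1.70% and 1.25%. Each hairpin library was below the control of its number, in 8 of 8 pairs. These pairs are not independent, because both hairpins were set against the same control of each number. The groups as a whole overlapped because the numbers differed far more than the groups. Within number, the mean of the hairpins lay 0.262, 0.0586, 0.355 and 0.0548 percentage points under the control for numbers 1 to 4. The difference was thus larger in numbers 1 and 3 than in numbers 2 and 4.

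**Figure D1:**
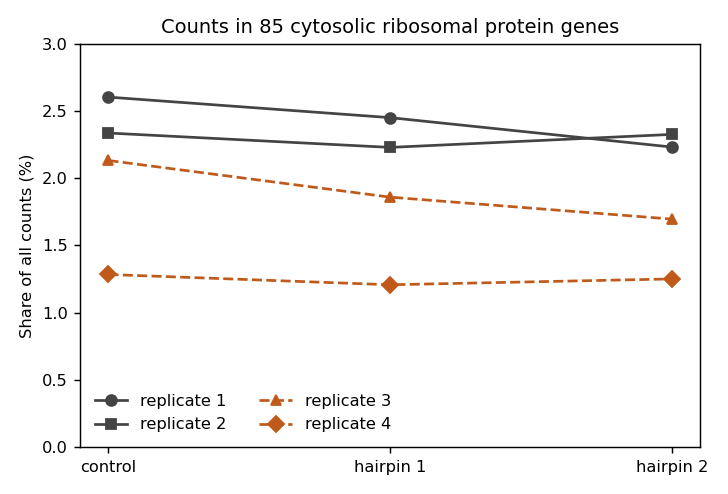
Share of all counts in the 85 ribosomal protein genes (vertical axis, %) in each of the 12 libraries, by group (horizontal axis), with lines joining libraries of the same replicate number. The replicate 4 libraries lie lowest, at 1.21% to 1.28%, and every hairpin library lies under its own control.

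Over both hairpins, nearly all the genes had a small negative fold change and none passed the test. All 85 genes passed the filter on low counts and were among 17025 genes tested, with library number as a block. Of the 85, 0 passed an adjusted p of 0.05 in edgeR's quasi-likelihood test, where 1.79% of all genes did and 0.946% were lower. At an unadjusted p under 0.05, 35 were lower and 0 higher, against 8.88% and 8.31% of all genes, and DESeq2 with the same model called 10 lower, against 3.82% of the genes to which it gave an adjusted p (the base of each DESeq2 share here). In 78 of 85 the fold change was negative, against 50.6% of all genes, and the median was -0.14 on the log2 scale, against 0.00 for all genes tested (-0.00244). The medians within numbers 1 to 4 were -0.19, -0.04, -0.31 and -0.05. In 23 of 85 all 8 same-number pairs were lower, against 4.31% of all genes, and in 0 of 85 all were higher.

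The direction was shared by the subunits. A negative fold change was found for 40 of 43 large-subunit genes (median -0.14), for 27 of 29 small-subunit genes (median -0.15), for all 3 stalk genes (median -0.15) and for 5 of 7 paralogs (median -0.02). Among core genes the values ran from -0.27 for Rps27 to 0.08 for Rps13, both components of the small subunit. In bulk RNA such a value cannot tell less RNA per cell from fewer cells of a type.

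**Figure D2:**
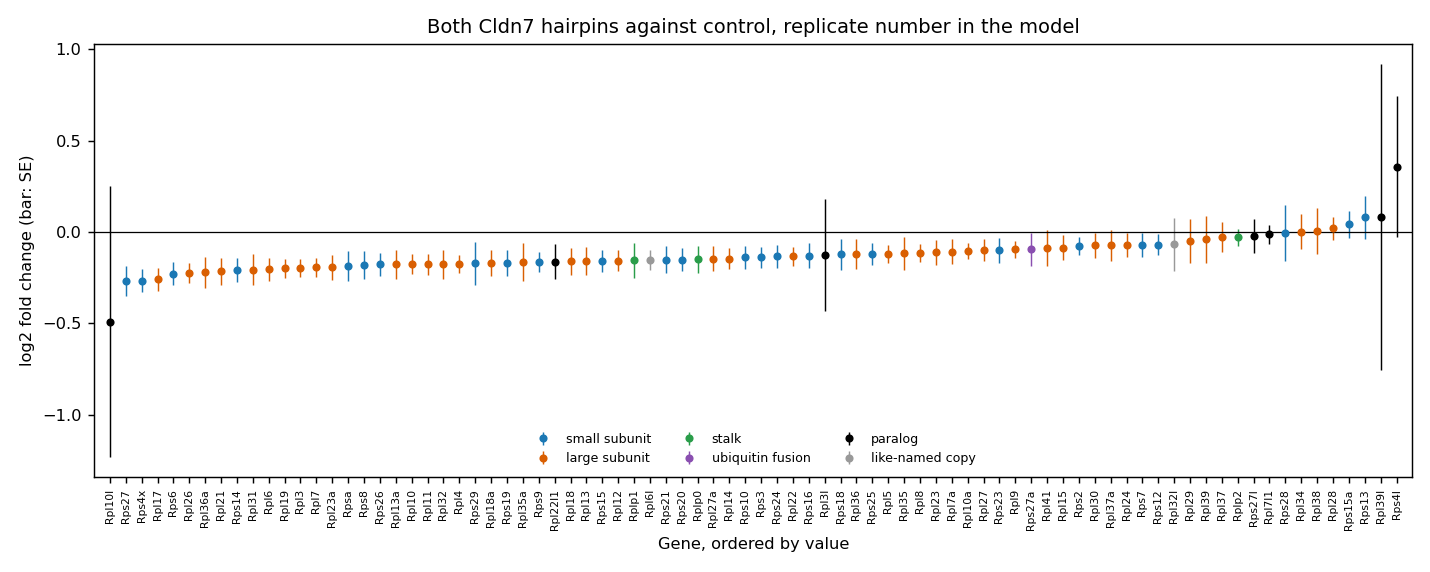
Log2 fold change of both hairpins against control for 82 of the genes (vertical axis, with bars of 1 SE), ordered by value along the horizontal axis and coloured by role. Negative values were found for 75 of the 82, and the wide bars belong to paralogs with few counts such as Rpl10l and Rpl39l.

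The smallest adjusted p over both hairpins was that of Rps4x, the X-linked gene of small-subunit protein eS4 (chrX:102184941-102189391). Its controls stood at 888, 743, 546 and 299 CPM on the TMM scale (a trimmed mean that evens out library composition). With hairpin 1 it stood at 783, 646, 409 and 267 CPM, and with hairpin 2 at 718, 687, 370.5 and 268 CPM. Each hairpin library was lower than its control, and levels differed more between numbers than between groups. The log2 fold change was -0.26 (SE 0.06, adjusted p = 0.0631, edgeR). Rpl26, whose large-subunit protein lies near the exit tunnel, followed with -0.23 (SE 0.05, adjusted p = 0.0645), and Rpl17 with -0.26 (SE 0.06, adjusted p = 0.0684).

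With hairpin 1 alone, 0 of 85 passed the test, where 0.728% of all genes did and 0.347% were lower. At an unadjusted p under 0.05, 16 were lower and 0 higher by edgeR, against 6.60% and 6.18% of all genes, and DESeq2 called 2 lower, against 2.13% of all genes. The fold change was negative in 75 of 85 with a median of -0.11 (all genes -0.00189), and 39 were lower in all 4 pairs, against 12.6% of all genes. Rpl3, which encodes a protein next to the peptidyl transferase centre, had the smallest adjusted p. Its controls stood at 243, 237, 22.6 and 24.4 CPM and its hairpin 1 libraries at 217, 199, 18.0 and 19.7 CPM, all 4 below their controls. The fold change was -0.26 (SE 0.06, adjusted p = 0.0917).

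With hairpin 2 alone, 3 of 85 passed the test and all 3 were lower, where 5.76% of all genes passed in either direction and 2.93% were lower. A negative fold change was found for 77 of 85, with a median of -0.18 (all genes 0.00436). Within numbers 1 to 4 the medians were -0.29, -0.02, -0.38 and -0.02, so numbers 2 and 4 showed little difference. At an unadjusted p under 0.05, 46 were lower and 0 higher, against 11.1% and 11.4% of all genes, and 32 were lower in all 4 pairs, against 12.8% of all genes.

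The first of the 3 was Rpl26 (chr11:68901566-68904534). Its controls stood at 335, 281, 312 and 163 CPM and its hairpin 2 libraries at 263, 251, 232 and 153 CPM. Each was below its control, while the groups overlapped. Rpl26 fell by 0.26 on the log2 scale (SE 0.06, edgeR adjusted p = 0.0424).

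Rpl19 (chr11:98022003-98030493), a large-subunit gene whose protein reaches across to the small subunit, stood at 364, 309, 78.5 and 49.9 CPM in controls and at 291, 296, 59.9 and 43.4 CPM with hairpin 2. It fell by 0.24 (SE 0.06, adjusted p = 0.0446). Rps4x, with the values given above, fell by 0.29 with hairpin 2 (SE 0.07, adjusted p = 0.0488). The drop in level was 15.5% for Rpl19, 16.3% for Rpl26 and 18.0% for Rps4x.

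These 3 calls lay close to the threshold. They were lost in the model without replicate number (0 called, adjusted p = 1.00 for each) and when libraries were scaled by their totals alone (0 called). They were also lost in replicates 1 and 2 alone, in replicates 3 and 4 alone, and with hairpin 1 libraries left out of the fit (0 called in each). Leaving out any 1 of 10 of the 12 libraries gave 0 calls. The exceptions were control replicate 2, without which 4 were called, and hairpin 2 replicate 2, without which 6 were called. DESeq2 with the replicate number called 15 lower, against 6.14% of all genes.

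**Figure D3:**
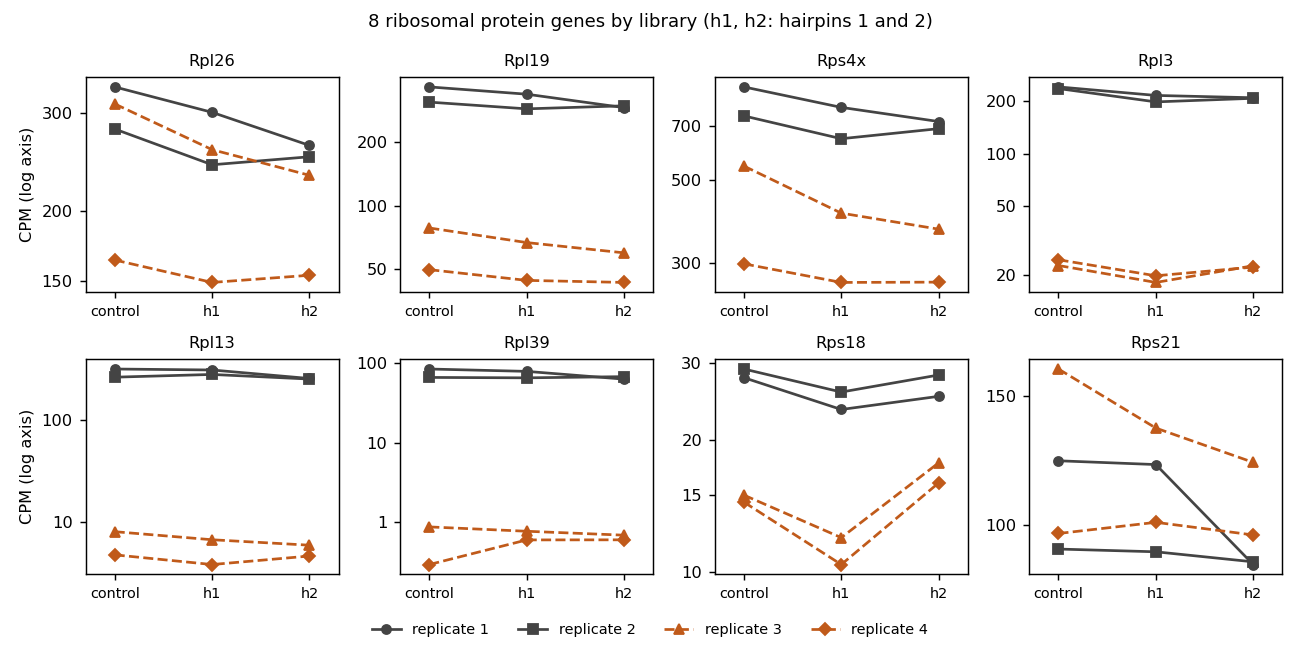
Scaled CPM of 8 ribosomal protein genes (vertical axis, logarithmic and separate for each gene) in control, hairpin 1 (h1) and hairpin 2 (h2) libraries, with lines joining libraries of the same number. Rpl26, Rpl19 and Rps4x lie under their control in every hairpin library, whereas Rpl13 and Rpl39 are separated by replicate number far more than by group.

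Between the 2 hairpins, 0 of the 85 passed the adjusted edgeR test, where 3.44% of all genes passed and 1.87% were lower. At an unadjusted p under 0.05 edgeR gave 3 lower and 3 higher with hairpin 2, against 9.37% and 10.7% of all genes, and DESeq2 called 1 of each, against 5.09% lower and 4.67% higher among all genes. Those 3 higher by edgeR were Rps18 and 2 paralogs with few counts, Rpl3l and Rps4l. The median difference was -0.06, with 71 of 85 negative against 48.4% of all genes. Its direction was not the same in all numbers, with medians of -0.18, 0.05, -0.14 and 0.04 within numbers 1 to 4. Only 11 of 85 were lower with hairpin 2 in all 4 pairs, against 14.9% of all genes. Rps18, a protein of the small-subunit head, ran against the median difference of -0.06. It stood at 27.7, 29.01, 15.0 and 14.4 CPM in controls, at 23.5, 25.7, 11.96 and 10.4 CPM with hairpin 1, and at 25.1, 28.1, 17.7 and 15.9 CPM with hairpin 2. All 4 hairpin 2 libraries lay above those of hairpin 1 with the same number (difference 0.36, SE 0.10, adjusted p = 0.0773). Rpl7l1, a nucleolar relative of Rpl7 that acts in ribosome assembly, was lower with hairpin 2 than hairpin 1 in all 4 pairs (difference -0.21, SE 0.06, adjusted p = 0.0879).

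Some core genes had values above 0 with the hairpins, which share their controls. They included Rps13, with 0.03 for hairpin 1 and 0.13 for hairpin 2, Rps15a, with 0.06 and 0.03, and Rpl28, with 0.03 and 0.02. None of these 3 passed the test.

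Markers of other cell types moved between the same libraries. Of 8 fibroblast markers, 1 rose over both hairpins (Col14a1, 1.07, SE 0.20, adjusted p = 0.0303) and 2 rose with hairpin 2. The summed fibroblast markers stood at 1462, 1069, 231 and 3885 CPM in controls, 1253, 1222, 268 and 4766 CPM with hairpin 1, and 2212, 710, 520 and 8499 CPM with hairpin 2. Of 7 epithelial markers, 1, Epcam, fell over both hairpins by 0.25 (SE 0.05, adjusted p = 0.0484). The list as a whole did not move 1 way, with 4 of 7 negative, 3 positive and a median of -0.02. Its highest value was that of Krt19, at 0.67 (SE 0.25, edgeR adjusted p = 0.207). The summed macrophage markers stood at 175, 76.6, 4.24 and 4.54 CPM in controls, at 88.3, 79.5, 4.22 and 24.3 CPM with hairpin 1, and at 38.4, 77.9, 5.45 and 7.02 CPM with hairpin 2, so that they were lower than the control in number 1 and higher in number 4. The part of these markers in the ribosomal protein values was not tested.

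The fold changes were negative at the median in both sets of numbers. The median over both hairpins was -0.11 in replicates 1 and 2 and -0.17 in replicates 3 and 4. The medians of all genes tested were -0.000219 and -0.00566. Of the 85 genes, 69 were lower in both sets, a count that was not made for all genes. The test of the difference between the sets called 0 of 85 genes and 0 of all 17025 (0%), and DESeq2 was not run on it. At an unadjusted p under 0.05 it gave 1 of 85, Rps13, against 6.07% of all genes, and the smallest adjusted p among the 85 was 0.528 (edgeR). Rps13 stood at 53.2, 47.0, 2.83 and 3.48 CPM in controls, 47.0, 39.9, 4.205 and 3.89 CPM with hairpin 1, and 43.8, 45.3, 4.39 and 4.60 CPM with hairpin 2. Its hairpin libraries lay below the control in numbers 1 and 2 and above it in numbers 3 and 4.

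The larger difference in these genes was that between the replicate numbers. The median of the 85 was 1.04 lower on the log2 scale in replicates 3 and 4 than in replicates 1 and 2 (-1.04, averaged over the 3 groups), where the median of all genes was 0.04. In 51 of 85 the 6 libraries of replicates 3 and 4 all lay below the 6 of replicates 1 and 2, against 14.3% of all genes, and in 0 of 85 they all lay above, against 3.88%. The libraries of a number are not independent, and no test was made.

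**Figure D4:**
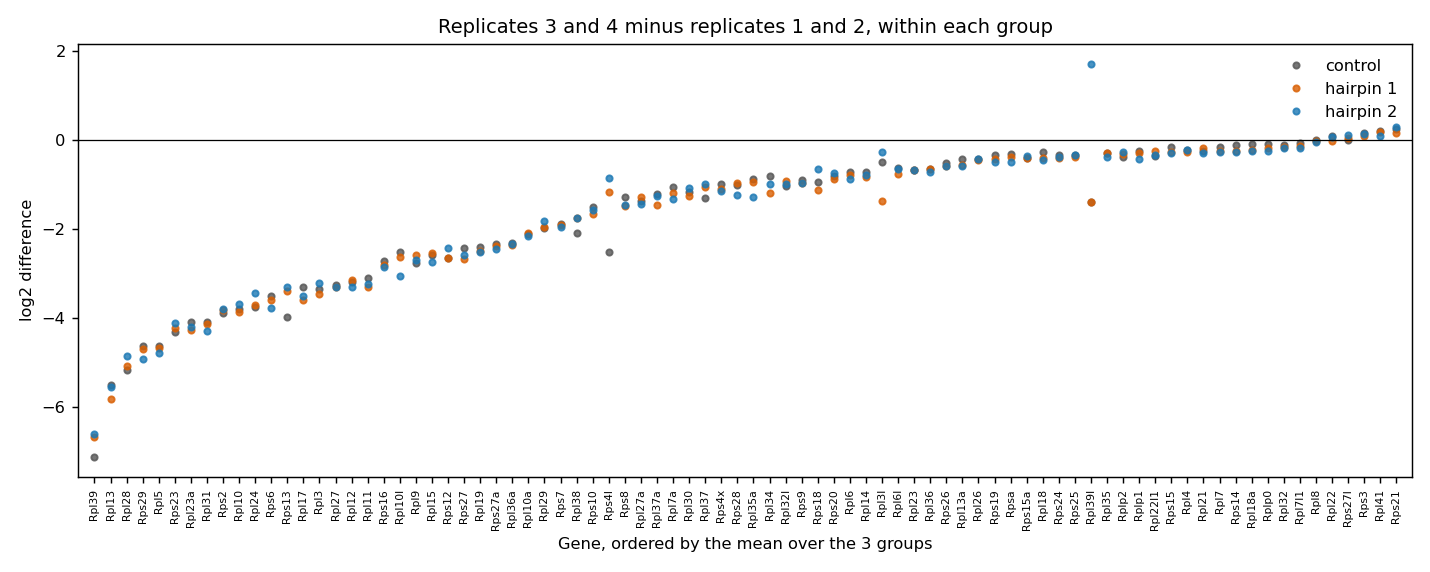
Log2 difference of replicates 3 and 4 minus replicates 1 and 2 for 82 of the genes (vertical axis) within control, hairpin 1 and hairpin 2 libraries, ordered by their mean along the horizontal axis. The values run from -6.81 for Rpl39 to 0.23 for Rps21 on average, and the 3 groups lie close together except for genes with few counts such as Rpl39l and Rps4l.

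The genes were not lowered alike. In 29 of 85 the difference was below -2, against 10.2% of all genes, and in 27 it lay between -2 and -0.5. In the other 29 of 85 it lay within 0.5 of 0, against 11778 of all 17025 genes tested, a larger share. Below -4 lay 8 genes, namely Rpl39, Rpl13, Rpl28, Rps29, Rpl5, Rps23, Rpl23a and Rpl31. Rpl10l, counted among those below -2, held at most 17 counts in any library and its value rests on these.

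Rpl39, the gene of a short large-subunit protein of the exit tunnel (chrX:37082518-37085222), was the most extreme. Its controls stood at 84.98, 66.5, 0.860 and 0.288 CPM. With hairpin 1 it stood at 79.3, 65.7, 0.758 and 0.589 CPM, and with hairpin 2 at 63.3, 68.1, 0.676 and 0.591 CPM. On average it was 112-fold lower in replicates 3 and 4, with 21 to 56 counts per library there against 2294 to 3065 in replicates 1 and 2.

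Rpl13, a large-subunit gene (chr8:123102350-123105244), stood at 313, 261, 8.14 and 4.84 CPM in controls, at 306.5, 277, 6.79 and 3.89 CPM with hairpin 1, and at 253, 249.98, 6.01 and 4.71 CPM with hairpin 2. It was 49.3-fold lower on average in replicates 3 and 4. Rpl28, whose run of pyrimidines is printed above, was 33.0-fold lower and Rps29, a zinc-binding small-subunit protein, 27.1-fold lower. In none of these 4 genes did any of the 6 libraries of replicates 3 and 4 reach the lowest of replicates 1 and 2.

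At the other end, Rps21 stood at 122, 92.7, 163 and 97.3 CPM in controls, at 121, 91.9, 136 and 100.8 CPM with hairpin 1, and at 88.25, 89.0, 122 and 96.9 CPM with hairpin 2. Its difference between the sets was 0.23, with overlapping libraries. Those of Rpl41, which encodes the shortest protein of the large subunit, and Rps3, a small-subunit protein at the messenger RNA entry site, were 0.16 and 0.12. The 3 stalk genes lay between -0.33 and -0.18.

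Because subunit proteins are made in near-equal amounts, levels between genes were also set per kilobase of transcript. Among core genes in replicates 1 and 2 the CPM per kilobase ran from 15.2 (Rpl29) to 1456 (Rpl13a), with a median of 202. In replicates 3 and 4 it ran from 1.02 (Rpl39) to 1181 (Rps14), with a median of 45.6. Among the highest over all libraries were Rps14 and Rpl13a, with 1319 and 1456 CPM per kilobase in replicates 1 and 2 and 1181 and 1067 in replicates 3 and 4. The 3 lowest were the paralogs Rpl10l, Rpl3l and Rpl39l.

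The difference between the sets went along with how much of a transcript also occurs in other genes. For each of the 84 genes with a GENCODE M21 transcript, stretches of 100 bases taken every 10 bases were searched on both strands in the transcripts of all other genes, pseudogenes included. The shared percentage ran from 0 to 96.0, with a median of 37.3. Of 14 genes with over 75% shared, 13 differed by less than -2 and the median was -3.52. Of 10 genes with none shared, 2 differed by less than -2 and the median was -0.26. These 2 included Rpl10l, which held at most 17 counts in any library. The exception among the 14 was Rpl35 (-0.34), which shared most with Wdr38, a gene that is no ribosomal protein.

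Genes other than ribosomal proteins showed the same order. Of 283 other genes with over 75% shared, 54.4% differed by less than -2, against 4.42% of 10483 with none shared. Across the 84 ribosomal protein genes Pearson's r was -0.50 and Spearman's rho -0.58. These are descriptions across genes, which share libraries and transcript families and are not independent replicates.

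**Figure D5:**
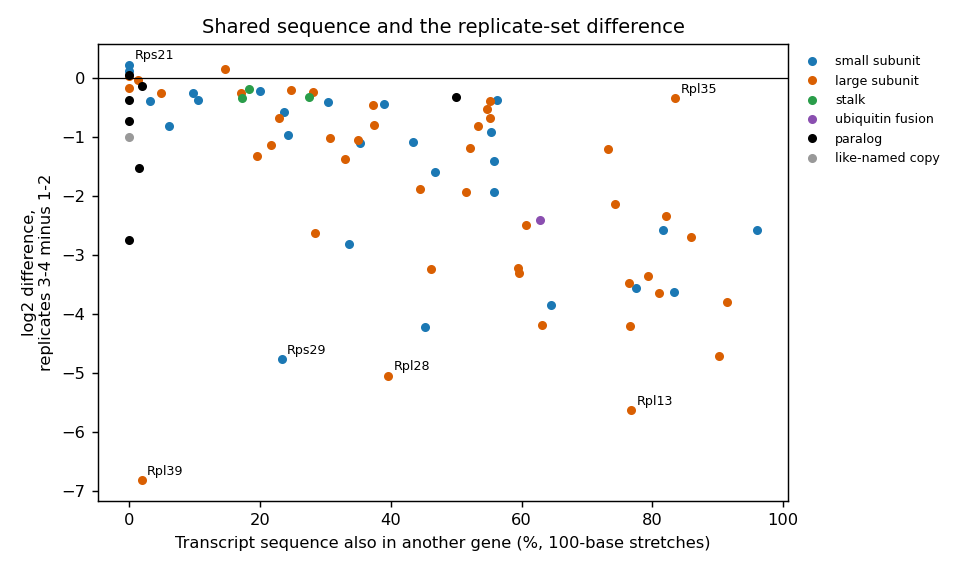
Log2 difference of replicates 3 and 4 minus replicates 1 and 2 (vertical axis) against the percentage of 100-base stretches of the transcript also found in another gene (horizontal axis) for 81 genes, coloured by role. Genes with over 75% shared lie between -5.62 and -2.34 except Rpl35 at -0.34, while Rpl39 is low with 1.92% shared.

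Not every gene followed this order. Rpl39, the lowest of all, had 1.92% shared. The sources used here do not state how reads with several matches or in overlapping genes were counted in each set, and the part of this counting was not tested. Sets of rows that overlap by annotation also differed. The 22 rows of the protocadherin gamma cluster, which share their last exons, had mean levels of 161 to 251 CPM in replicates 1 and 2 and 0.608 to 186 CPM in replicates 3 and 4, with medians of 162 and 3.55. Both alpha-globin rows, Hba-a1 and Hba-a2, which are near-identical, averaged 185 and 168 CPM in replicates 1 and 2 and held 0 counts in replicates 3 and 4. These examples were chosen after their values were seen.

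The pseudogene rows of these genes were lower in replicates 3 and 4 as well. The table has 35 rows named as pseudogenes of these genes. They summed to 2244 to 2765 CPM in replicates 1 and 2 and to 482 to 1009 CPM in replicates 3 and 4, and each of the 35 was lower on average in the latter. With the pseudogene rows of the same name added to each gene, the median difference was -1.08.

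The fold changes of the hairpins had similar medians whatever the difference between the sets. Over both hairpins the median was -0.15 in the 29 genes within 0.5 of 0 between the sets, -0.12 in the 26 intermediate genes with a transcript, and -0.16 in the 29 genes below -2. Negative values were found for 27, 23 and 27 of these.

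Paralogs were set beside their partners. Rpl22, whose product binds RNA in the large subunit, stood at 295 to 460 CPM in controls with a fold change of -0.13 over both hairpins (SE 0.05, adjusted p = 0.216), and Rpl22l1 at 21.7 to 56.2 CPM with -0.16 (SE 0.09, adjusted p = 0.422). Rps27 stood at 5.54 to 36.4 CPM with -0.27 (SE 0.08, adjusted p = 0.127), and Rps27l, a p53-responsive relative, at 54.2 to 126 CPM with -0.02 (SE 0.09, adjusted p = 0.938). In replicates 3 and 4 Rps27 lay below Rps27l per kilobase, at 15.5 against 175 CPM per kilobase, and in replicates 1 and 2 at 91.7 against 163. Rps27 had 96.0% of its sequence shared, most of it with Rps27rt, so its level is uncertain.

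Of the other pairs, Rpl7 had -0.19 (SE 0.05) and Rpl7l1 -0.01 (SE 0.05), and Rpl10 had -0.18 (SE 0.06). The paralogs known for use in muscle or testis, Rpl3l, Rpl10l and Rpl39l, had few counts, as did Rps4l. Rpl3l stood at 0.223 to 0.955 CPM over all libraries. Rpl10l had 0 counts in 5 of the 6 libraries of replicates 3 and 4. Rpl39l ranged from 0 to 2.03 CPM and Rps4l from 0.0461 to 2.56 CPM, and the values of each overlapped between groups. Within number, Rps4l and Rpl3l were higher with hairpin 2 than with hairpin 1 in all 4 pairs, at these low levels.

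Other gene groups of the pathway were taken from lists, and 0 genes of each of the 5 lists below passed edgeR's test over both hairpins. The 6 ribosomal protein genes outside the symbol pattern, among them Fau and Rack1, all had negative values with a median of -0.15. Of 22 translation genes known for terminal oligopyrimidine messages, such as elongation factors, 20 were negative with a median of -0.07. Mitochondrial ribosomal proteins were negative in 57 of 78, with a median of -0.05, and their median difference between the replicate sets was -0.04.

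Ribosome biogenesis genes, which act in the nucleolus, were negative in 15 of 36 with a median of 0.03. Of 19 regulators, 6 were negative with a median of 0.03. Larp1 rose with hairpin 2 by 0.21 (SE 0.05, adjusted p = 0.0460, edgeR), and was 0.14 over both hairpins (adjusted p = 0.141). At an unadjusted p under 0.05 edgeR gave 4 lower of the 6, 7 lower of the 22 and 7 lower of the 78. It gave 3 higher of the 36, and 1 higher and 2 lower of the 19. Of all genes it gave 8.88% lower and 8.31% higher, a share near that of the 78 and the 36. DESeq2 called 1 lower of the 6, 6 lower of the 22, 0 of the 78, 1 higher of the 36 and 1 higher of the 19, where it called 3.82% of all genes lower and 4.25% higher.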

How the data were processed

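The authors deposited 1 table of raw counts per gene for all 12 libraries, per the file headers, with Entrez numbers and symbols, and each of its value columns was matched to a sample by title. Trimmomatic 0.39, FastQC 0.74, DESeq2 1.34.0 and the mm10 build are listed, without roles, in the submitters' processing notes. Not given in the sources used here are the aligner, the gene annotation, the strand setting and the handling of reads with several matches. Counts of near-copies, overlapping genes and antisense partners are therefore uncertain.

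Genes passing edgeR's filterByExpr (17025, with 8836 left out) were fitted with edgeR 4.0.16 in R 4.3.3, using TMM scaling, the quasi-likelihood test, group and replicate number as terms, all 12 libraries, and Benjamini-Hochberg adjustment over all tested genes at 0.05. The CPM values are TMM-scaled. Log2 differences between replicate sets used a prior count of 2. Comparison within number was set when this group of genes was defined, and same-numbered libraries were already known to deviate together. They deviated together from their group means (correlations 0.855 to 0.916 in 12 pairs, -0.807 to 0.727 in 36 pairs of other numbers). Alternatives were no replicate number, other scalings, DESeq2 1.42.0, no filter, libraries or replicate sets left out, and 2-group fits. The scripts were tested on simulated data. Shared sequence was searched with Python 3 in GENCODE M21 transcripts, and promoters came from RefSeq.

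The members and gene lists were chosen with earlier results of these data known. Named are members past the threshold in any comparison, otherwise those of smallest p in each direction, the 3 highest and lowest per length, the 4 largest differences between replicate sets each way, the paralog pairs, and listed genes past the threshold. Others are named where a small count is given, after their values were seen. Some genes are counted but not reported by name here or drawn in the plots of single genes. No alternative was added after seeing the data.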

Additional observations from a re-analysis of the deposited data

Results flagged for a closer look

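Of 84 sets of 4 libraries checked for a value far from the others, 1 stood apart. Rps14, a small-subunit gene, had 515 CPM in hairpin 2 replicate 4, the lowest of the group, where the other 3 libraries lay between 741 and 756 CPM. The control and hairpin 1 libraries of the same number were also the lowest of their groups for this gene, at 553 and 511 CPM. Chance flags about 1 in 20 such sets.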

How the results depend on the processing

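Results for the replicate block come first. Without the replicate number in the model, 0 of 85 genes were called in hairpin 2 against control (3 with it), and it changed no other count of calls. For hairpin 2 against control the count was also 0 with library totals as scaling, in replicates 1 and 2 alone, in replicates 3 and 4 alone, and in the fit of the 2 groups. DESeq2 called 15 there, 10 for both hairpins and 2 for hairpin 1, all lower, where it called 6.14%, 3.82% and 2.13% of all genes lower. It called 2 for hairpin 2 against hairpin 1, 1 each way, where it called 5.09% of all genes lower and 4.67% higher. The fit of control and hairpin 1 alone called 1. Leaving out 1 library at a time gave 0 to 6 calls for hairpin 2, 0 to 3 for both hairpins (3 without hairpin 2 replicate 2 and 2 without hairpin 2 replicate 3), 0 to 1 for hairpin 1 (1 without hairpin 2 replicate 3), and 0 to 1 for hairpin 2 against hairpin 1 (1 without control replicate 3). The cause of these changes was not tested.

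The median fold changes kept their sign under all the alternatives run. Leaving out 1 library gave -0.18 to -0.08 for both hairpins, -0.14 to -0.05 for hairpin 1, -0.22 to -0.12 for hairpin 2, and -0.11 to -0.01 for hairpin 2 against hairpin 1. With library totals as scaling, 55 of 85 were negative in the last comparison, against 71. The median difference between the replicate sets was -1.14 within hairpin 1 and -1.01 within control. The 3 calls of hairpin 2, with drops of 15.5% to 18.0%, had adjusted p-values of 0.0424 to 0.0488, and low-count paralogs such as Rpl10l cannot be compared.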
